A study of Mus musculus with 6 samples.

Results

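Costimulatory and checkpoint molecules are surface proteins with which a macrophage or other antigen-presenting cell raises or damps the response of a T cell that has recognised its antigen. CD80 and CD86 bind CD28, which costimulates, and CTLA4, which inhibits, while PD-L1 (gene Cd274) and PD-L2 (Pdcd1lg2) bind the inhibitory receptor PD-1. ICOS ligand (Icosl) costimulates through ICOS, B7-H3 (Cd276) and VISTA (Vsir) are further members of the B7 group, CD83 is a surface glycoprotein best known from mature dendritic cells, and TIM-3 (Havcr2) is a receptor rather than a ligand, bound by galectin-9 among others. The 9 genes were picked by symbol, and each had 1 row among the 25711 rows of the deposited gene table.

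The cells were macrophages cultured from the bone marrow of wild-type (WT) mice, and their RNA was sequenced in 6 libraries. A group of 3 served as control at 24 h, and the other 3 had received CCL7, a chemokine, at 500 ng/ml over 24 h. The series asks how CCL7 relates to macrophage polarization in the setting of rheumatoid arthritis. Separate cultures or mice are not named in the labels, so the p-values measure the spread between these libraries, which may be technical.

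Libraries held 34860523 to 51161400 counts. Libraries of 1 group differed by more than the noise of independent counts (chi-square per degree of freedom 3.79 to 29.2). Counting both mates of a pair would raise these values. CCL7 replicate 2 stood apart from CCL7 replicates 1 and 3 on the second principal component (14.4 against -6.31 and -8.67). That component held 1.83% of the variance. All 8 macrophage markers listed had a mean FPKM of at least 1, where FPKM is the count divided by gene length and by the library total. Of 13 dendritic cell markers only Itgax reached that level, and the list summed to 10.0 to 13.2 FPKM in controls and 9.72 to 10.96 with CCL7, most of it Itgax. Within that sum low genes moved both ways, with 4 of the 13 called higher, 3 lower and 6 not called. These calls came from the fit without an expression filter, where 19.2% of 25711 genes were called higher and 18.9% lower. Counts of Flt3, a defining dendritic gene, were 2 (controls) and 0 (CCL7). Of the T cell genes Cd3d had 2 and 0 counts and Trac 0 and 1. The 4 T cell markers found summed to 1.82 to 2.21 FPKM in controls and 1.22 to 1.35 with CCL7, mostly from Cd4. The neutrophil list summed to 1.23 to 1.54 FPKM in controls and 14.1 to 21.1 with CCL7, mostly from S100a8 (102 and 1538 counts), with Ly6g at 0 and 2 counts. With a filter at a mean FPKM of 1, S100a8 was called higher, as were 33.9% of the genes tested. Without it Camp, at 10 and 158 counts, was called higher, as were 19.2% of genes. The other 4 found were not called. Both mast cell markers found, Cpa3 and Kit, were called lower without the filter, as were 18.9% of all genes. They summed to 1.77 to 1.88 FPKM in controls and 0.0804 to 0.181 with CCL7. What part these lists had in the results below was not tested. In such bulk samples fewer cells of a type and less RNA per cell cannot be told apart.

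Cd274 and Pdcd1lg2, which encode the ligands of PD-1, lie next to each other on mouse chromosome 19, both on the plus strand and 22.8 kb apart with 0 protein-coding genes between them. The 129 bases before each RefSeq start (build GRCm38.p6) are shown because these neighbours share a receptor and yet differed in level and in response in the values that follow. The Cd274 stretch is chr19:29367309-29367437 and the Pdcd1lg2 stretch chr19:29410790-29410918, both 5′ to 3′ on the plus strand. Their length was set by the end of an untranslated exon annotated before Cd274. The Cd274 stretch begins inside the gene model of the divergent neighbour gene Plgrkt, which reaches to 29367390. Capitals mark a match to the core of the interferon regulatory factor (IRF) motif.
Cd274: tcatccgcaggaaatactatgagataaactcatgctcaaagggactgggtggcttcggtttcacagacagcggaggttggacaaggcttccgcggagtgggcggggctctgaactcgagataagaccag
Pdcd1lg2: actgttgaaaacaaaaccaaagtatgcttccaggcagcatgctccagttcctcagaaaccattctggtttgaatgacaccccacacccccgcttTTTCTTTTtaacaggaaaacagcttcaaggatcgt

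RefSeq windows from 250 bases before to 50 bases after the start were found for 7 of the 9 genes, with Cd83 and Cd86 not among them. The IRF core was searched as AANNGAAA, the STAT site GAS as TTCNNNGAA, the NF-kB site as GGGA, any base, then TTTCC, and the AP-1 site as TGANTCA, each on both strands. Cd274 held 1 IRF match, TTTCGTTT, from 175 to 168 bases before the start, outside the stretch printed and inside the gene model of Plgrkt. Pdcd1lg2 held 1, TTTCTTTT, from 35 to 28 bases before the start. Cd80 held an IRF match after its start and an AP-1 match, TGATTCA, from 42 to 36 bases before it, and Havcr2 the same AP-1 letters from 200 to 194 bases before. Of 27025 promoter windows of all genes 24.2% held the IRF core and 7.93% the AP-1 letters. No GAS or NF-kB match lay in the 7 windows, and 8.47% and 0.385% of all windows held one. These matches are letters in a window and not sites shown to be bound, and the Cd80 window is set by a RefSeq start 3372 bases from the GENCODE start of the gene.

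Genes of the group moved both ways with CCL7. Of the 9 genes 8 had a mean FPKM of at least 1 and were tested: Cd274, Cd86, Icosl and Cd80 were higher with CCL7, and Cd83, Cd276, Havcr2 and Vsir were lower. The test was edgeR's quasi-likelihood test on counts with TMM scaling and Benjamini-Hochberg adjustment over 11143 genes, which called 69.1% of them, 33.9% higher and 35.2% lower, so that calls for 8 of 8 genes stand against a background where most genes were called. With the deposited library totals in place of TMM, 74.1% of all genes were called, 20.7% higher and 53.4% lower, and the members were 3 higher and 4 lower, with Cd80 not called. Leaving out CCL7 replicate 2, the library that stood apart, 4 genes were still called higher (log2 changes 0.25 for Cd80, 0.71 for Icosl, 2.12 for Cd86 and 2.54 for Cd274) and 4 lower (-3.41 for Cd83, -0.91 for Cd276, -0.72 for Havcr2 and -0.24 for Vsir). At 3 of the 8 genes (Cd274, Cd86 and Cd83) the change was at least 2-fold, against 16.4% of all genes tested. The groups did not overlap in TMM-scaled CPM (counts scaled to a common library size) at any of the 8, against 73.7% of all genes. The median log2 change of the 8 genes was 0.01, beside -0.01 for all genes tested, and the median size of change regardless of direction was 0.79 beside 0.36.

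**Figure D1:**
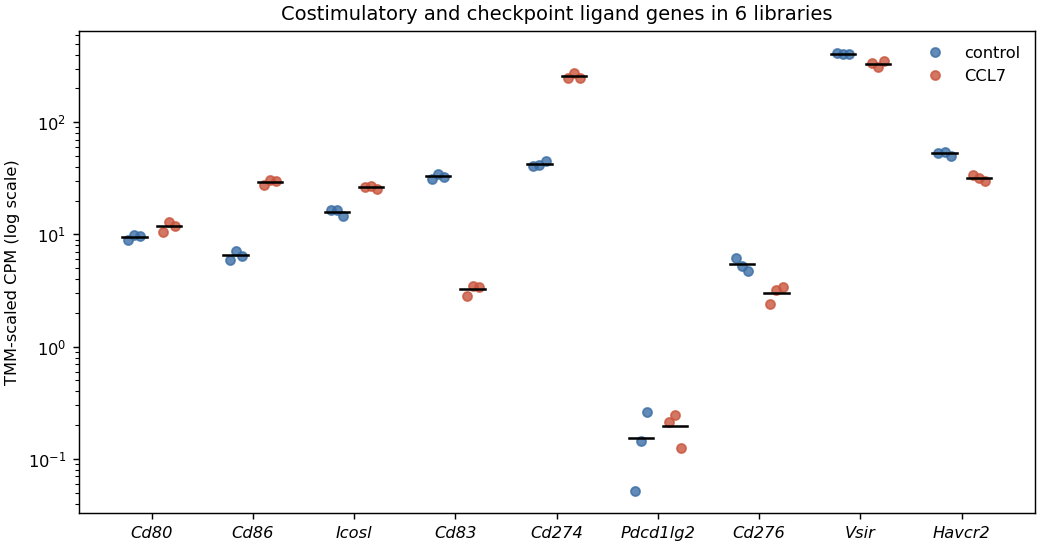
TMM-scaled CPM on a log axis for the 9 ligand and checkpoint genes, with 1 point per library (control blue, CCL7 red) and a black bar at the mean of 3. The groups separate for every gene but Pdcd1lg2, whose points lie below 0.3 CPM and overlap.

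Cd274, the PD-L1 gene, had the largest rise of the 8. It stood at 40.4, 42.0 and 45.6 CPM in control replicates 1, 2 and 3 and at 249, 277 and 248 with CCL7. Every CCL7 library was far above every control. The log2 change was 2.60 ± 0.07 (SE, n = 3 per group here and below; edgeR adjusted p = 2.35e-10), a 6.05-fold rise, and 221 of the 11143 genes tested had a larger log2 change. In FPKM, which allows genes to be compared, its level exceeded that of 64.2% of the genes tested in controls and 93.7% with CCL7. The gene (ENSMUSG00000016496) spans 29367455 to 29388095 on chromosome 19 in GENCODE M21 (GRCm38).

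Pdcd1lg2, the PD-L2 gene (ENSMUSG00000016498, 29410919 to 29471161), was almost silent. It had 2, 7 and 10 counts in the controls and 10, 10 and 5 with CCL7, and the groups overlapped. The summed counts were 19 and 25, a TMM-scaled ratio of 1.29 with a 95% counting interval of 0.681 to 2.47 (exact Clopper-Pearson), and no difference was detectable at this depth. In the fit without the expression filter, where 38.1% of 25711 genes were called, the log2 change was 0.40 (edgeR adjusted p = 0.691). Counting intervals cover counting error only. The FPKM of Cd274 was 423, 157 and 93.3 times that of Pdcd1lg2 in the controls and 636, 604 and 1077 times with CCL7. The log2 difference of the ratio was 2.02 (exact 2-sided permutation p = 0.1, the smallest that 3 against 3 libraries allow). It rested on the few Pdcd1lg2 counts and was 2.62 without control replicate 1, where Pdcd1lg2 had 2 counts.

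Each of these genes has an antisense transcript in GENCODE M21, and both of those transcripts rose. Gm36043, which runs against Cd274 and shares 511 bases of exon with it (14.1% of the Cd274 exon bases), went from 100, 186 and 137 counts to 996, 561 and 789. Its log2 change was 2.44 ± 0.26 (edgeR adjusted p = 8.75e-07). A930007I19Rik, which lies against Pdcd1lg2 and shares 0 exon bases with it, went from 38, 63 and 48 counts to 201, 150 and 136, a log2 change of 1.72 ± 0.16 in the fit without the filter (edgeR adjusted p = 9.89e-18). The strand setting of the counting is not given in the sources used here, so reads of Cd274 and of Gm36043 in the shared bases cannot be told apart. The counts of Gm36043 came to 423 in the controls against 5315 for Cd274, and to 2346 against 32849 with CCL7.

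**Figure D2:**
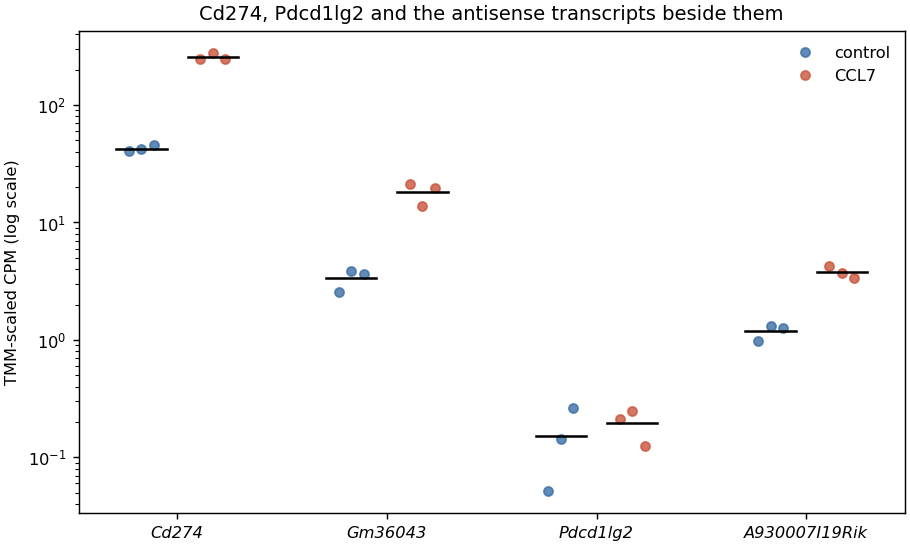
TMM-scaled CPM on a log axis for Cd274, Pdcd1lg2 and the antisense transcript of each, with 1 point per library (control blue, CCL7 red) and a black bar at the mean of 3. Cd274, Gm36043 and A930007I19Rik are higher in all CCL7 libraries, and Pdcd1lg2 overlaps between groups.

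Cd86 and Cd80, which encode the ligands shared by CD28 and CTLA4, parted. Cd86 (ENSMUSG00000022901, chromosome 16, 36603869 to 36666081, minus strand) stood at 5.97, 7.18 and 6.42 CPM in the controls and at 27.3, 30.7 and 29.8 with CCL7. All CCL7 libraries were well above the controls, with a log2 change of 2.16 ± 0.09 (edgeR adjusted p = 5.82e-09), a 4.47-fold rise. Cd80 (ENSMUSG00000075122, chromosome 16, 38455561 to 38496335, plus strand) stood at 8.86, 9.97 and 9.62 CPM in the controls and at 10.6, 12.8 and 12.01 with CCL7. The groups came close without overlapping, and the log2 change of 0.31 ± 0.09 was called (edgeR adjusted p = 0.0150). That call was lost with the deposited library totals (0.07, edgeR adjusted p = 0.504), which moved the median of all genes by -0.24. A change of scaling shifts all genes nearly alike, so the change relative to this median (0.33 with TMM) stays nearly the same by construction. It therefore adds nothing to the call. The call was lost as well without control replicate 1 (edgeR adjusted p = 0.0587).

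The balance of this pair, taken within each library so that scaling cancels, was opposite between the groups. The ratio of Cd86 to Cd80 in FPKM was 0.681, 0.728 and 0.675 in control replicates 1, 2 and 3 and 2.61, 2.43 and 2.51 with CCL7. Cd80 transcripts were thus the more abundant in each control and Cd86 transcripts in each CCL7 library. The log2 difference of the ratio was 1.86 (exact 2-sided permutation p = 0.1, the smallest possible).

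Icosl, whose product binds ICOS on activated T cells, rose moderately. It stood at 16.6, 16.3 and 14.7 CPM in the controls and at 26.5, 27.0 and 25.6 with CCL7, and every CCL7 library was higher. The log2 change was 0.73 ± 0.06 (edgeR adjusted p = 4.17e-06), or 0.49 with the deposited totals. The gene (ENSMUSG00000000732) spans 78069302 to 78083913 on chromosome 10, plus strand.

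Cd83 had the largest change of the group, a fall. It stood at 31.3, 34.8 and 32.7 CPM in the controls and at 2.84, 3.47 and 3.40 with CCL7, so that each CCL7 library held about the same small remainder. The log2 change was -3.35 ± 0.10 (edgeR adjusted p = 3.21e-10), a 10.2-fold fall, and 130 of the 11143 genes tested had a lower log2 change. Its FPKM exceeded that of 66.5% of the genes tested in controls and of 7.68% with CCL7. Cd83 (ENSMUSG00000015396) lies at 43784775 to 43803132 on chromosome 13, plus strand. Dendritic cell markers moved both ways beside this fall. From control to CCL7 the summed counts of Ccr7 went from 2 to 64, those of Fscn1 from 10 to 272, those of Ccl22 from 8 to 266 and those of Xcr1 from 12 to 131, and these 4 genes were called higher in the fit without the filter. Irf4 (338 to 82), Cd209a (36 to 0) and Clec9a (54 to 16) were called lower there, beside 19.2% of all genes higher and 18.9% lower. Itgax (log2 change -0.05 ± 0.17, edgeR adjusted p = 0.738), Batf3 (158 to 128 counts), Zbtb46 (32 to 35), Flt3 (2 to 0), Dpp4 (6 to 2) and Siglech (4 to 0) were not called. The part of these genes in the fall of Cd83 was not tested.

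Cd276, the B7-H3 gene, was low in both groups and fell. It stood at 6.20, 5.25 and 4.76 CPM in the controls and at 2.39, 3.23 and 3.40 with CCL7. The groups did not overlap, although the spread was the widest among the 8 genes tested (coefficient of variation 13.6% and 17.9%). The log2 change was -0.85 ± 0.19 (edgeR adjusted p = 0.00112). The gene (ENSMUSG00000035914, chromosome 9, 58524298 to 58555437, minus strand) shares 416 exon bases with an overlapping entry on the other strand, Gm10657, not analysed here.

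Vsir, the VISTA gene, was the most abundant of the 9 in controls. It stood at 413, 405 and 402 CPM in the controls and at 336, 308 and 352 with CCL7, a small fall seen in every CCL7 library. The log2 change was -0.29 ± 0.06 (edgeR adjusted p = 0.000826), and -0.53 with the deposited totals, so it fell under both. Vsir (ENSMUSG00000020101, chromosome 10, 60346851 to 60372684, plus strand) lies inside Cdh23 on the opposite strand, shares 0 exon bases with it, and the counts of Cdh23 were 89 and 232, against 50748 and 42439 for Vsir.

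Havcr2, the TIM-3 gene, was at 53.3, 54.5 and 50.2 CPM in the controls and at 34.0, 32.1 and 30.1 with CCL7. The CCL7 libraries were all lower, with a log2 change of -0.72 ± 0.06 (edgeR adjusted p = 2.50e-06), a 1.64-fold fall. The gene (ENSMUSG00000020399) spans 46454935 to 46481255 on chromosome 11, plus strand.

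**Figure D3:**
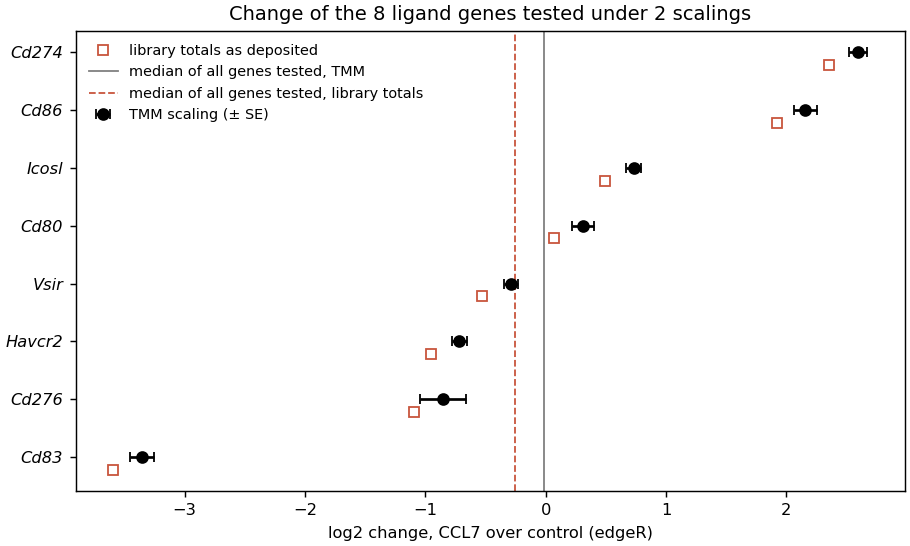
Log2 change of the 8 genes tested, CCL7 over control, with TMM scaling (black points, bars are the SE from 3 libraries per group) and with the deposited library totals (open red squares). Vertical lines mark the median of all genes tested, -0.01 with TMM and -0.25 with the totals. With TMM 4 genes lie above that median and 4 below it. The totals shift all genes nearly alike, so the same split there follows by construction.

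Compared per length, the order of the genes changed with CCL7. In controls the order of FPKM was Vsir (87.1 to 89.5), Havcr2 (20.02 to 21.7), Cd83 (13.2 to 14.7), Cd274 (12.1 to 13.7), Icosl (3.45 to 3.91), Cd80 (2.60 to 2.92), Cd86 (1.77 to 2.13), Cd276 (1.41 to 1.84) and Pdcd1lg2 (0.0287 to 0.146). Among neighbours in that order Cd83 and Cd274 overlapped, and so did Cd86 and Cd276. With CCL7 the order was Cd274 (63.4 to 69.8), Vsir (56.2 to 65.0), Havcr2 (10.2 to 11.5), Cd86 (6.89 to 7.65), Icosl (5.13 to 5.35), Cd80 (2.64 to 3.15), Cd83 (1.02 to 1.23), Cd276 (0.604 to 0.859) and Pdcd1lg2 (0.0589 to 0.116). Only Cd274 and Vsir overlapped there. The summed FPKM of the 9 genes was 146 ± 1.41 (SD, n = 3) in controls and 155 ± 1.49 with CCL7, and its make-up differed. The sums did not overlap (144 to 147 and 153 to 156). FPKM divides by the deposited library total, and the sum under TMM scaling was not computed. Cd274 held 8.77% ± 0.62 of the sum in controls and 42.3% ± 2.38 with CCL7. Vsir held 60.3% ± 0.80 and 39.4% ± 2.78, Havcr2 14.4% ± 0.47 and 6.999% ± 0.49, and Cd83 9.53% ± 0.46 and 0.75% ± 0.07. The shares of Cd86 were 1.33% ± 0.12 and 4.75% ± 0.23, and those of Cd80 1.91% ± 0.11 and 1.89% ± 0.16.

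**Figure D4:**
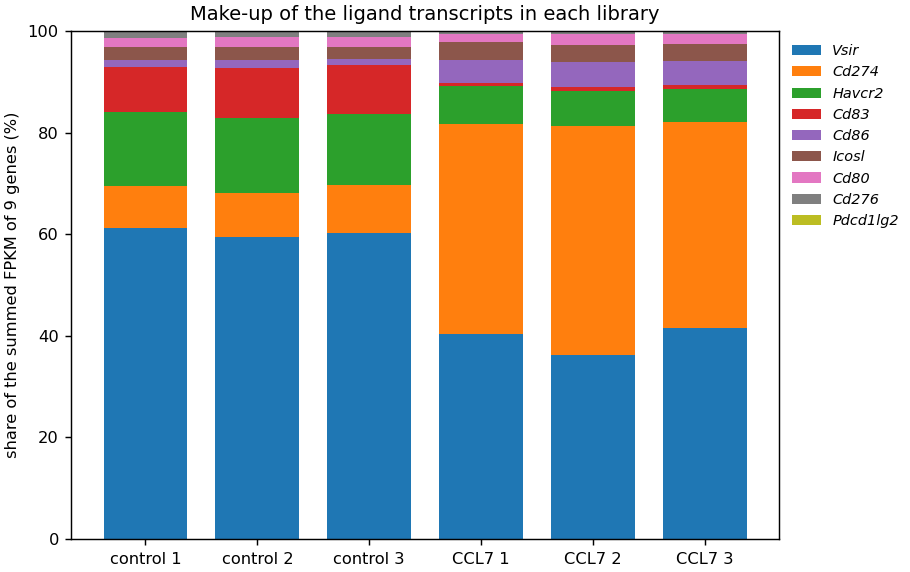
Share (%) of each of the 9 genes in their summed FPKM, 1 stacked bar per library. Vsir makes up 59.6% to 61.2% of the bar in controls and 36.2% to 41.5% with CCL7, where Cd274 reaches 40.5% to 45.0%.

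The genes closest in pattern were found by Euclidean distance in log2(FPKM + 1) over the 6 libraries, a description of level and change together. For Cd274 they were Il2rg (distance 0.15), Pstpip2 (0.25) and Lmo4 (0.35), and for Cd86 C1ra (0.24), Gm5345 (0.33) and Gbp7 (0.35). Those closest to Cd83 were Atp2a3 (0.27), Ect2 (0.28) and Cip2a (0.30). For the other genes the closest were Pnkd for Cd80 (0.15), Osgin2 for Icosl (0.15), Tnfsf14 for Cd276 (0.16), Fam120a for Vsir (0.11) and Uhrf2 for Havcr2 (0.18).

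On the receptor side, 15 of 18 listed receptors and counter-receptors of T and natural killer cells had a row, and only Cd28 was expressed enough to be tested. Cd28, whose product is the costimulatory receptor for CD80 and CD86, stood at 318, 345 and 341 CPM in the controls and at 82.6, 77.1 and 74.8 with CCL7. Every CCL7 library was lower, with a log2 change of -2.10 ± 0.06 (edgeR adjusted p = 3.31e-10). In FPKM it was at 59.4 ± 2.49 (SD, n = 3) in controls and 11.8 ± 0.62 with CCL7, above Cd80 and Cd86 in each group, while Cd3d and Trac had at most 2 counts in a group. No annotated gene overlaps Cd28 (ENSMUSG00000026012, chromosome 1, 60716800 to 60773359). Counts of Ctla4, the other receptor of the pair, were 0 and 2, and the remaining 13 receptors were at or below 0.862 FPKM in every library. Icos had 111 and 16 counts.

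Of 22 listed ligands and related genes outside the group, some of them receptor genes such as Cd40, 18 had a row and 10 were tested. Of those tested 8 rose and 2 fell, or 7 and 2 with the deposited totals, with a median log2 change of 1.16. Over all genes tested 33.9% were called higher and 35.2% lower, or 20.7% and 53.4% with the totals, and these shares are the background for each list count that follows too. Cd40, which receives help from T cells, rose from 1.83 ± 0.0225 to 16.3 ± 1.01 CPM (mean ± SD, n = 3) and Tnfsf9, which encodes the ligand of the costimulatory receptor 4-1BB, from 2.51 ± 0.348 to 21.7 ± 2.92 CPM. The adhesion ligand gene Icam1 rose by 2.26 ± 0.04 on the log2 scale, and Pvr (1.41 ± 0.03) and Nectin2 (1.19 ± 0.06), whose products bind TIGIT and CD226, rose as well. The falls were Cd24a (-0.78 ± 0.05) and Cd48 (-0.19 ± 0.08). The call for Cd48 was lost without the filter (-0.14) (adjusted p = 0.0640). Leaving out control replicate 2 (-0.18) or 3 (-0.17), or CCL7 replicate 1 (-0.15) or 3 (-0.14), ended it too.

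The list of partners of TIM-3, VISTA, PD-L2 and LAG3, which also holds a gene for the synthesis of phosphatidylserine (Ptdss1), had 7 genes tested. Of these 2 rose, 3 fell and Rgmb and Ptdss1 did not pass, beside 1 and 4 with the deposited totals. Lgals9, which encodes the TIM-3 ligand galectin-9, rose from 84.8 ± 4.82 to 281 ± 21.9 CPM (log2 change 1.73 ± 0.08, edgeR adjusted p = 5.83e-09) while Havcr2 fell. Hmgb1, which encodes another reported TIM-3 ligand, fell (-1.12 ± 0.06).

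All 15 listed genes that act on these proteins after translation were tested, and 6 rose, 5 fell and 4 did not pass, or 4 and 9 with the deposited totals, shares near those of all genes. Marchf1, which encodes a ubiquitin ligase that lowers surface CD86 and is opposed by CD83 in dendritic cells, rose from 46.0 ± 2.74 to 144 ± 5.22 CPM (log2 change 1.64 ± 0.06, edgeR adjusted p = 2.46e-09). Cmtm6, which encodes a protein that keeps PD-L1 at the surface, was at -0.04 ± 0.02 (edgeR adjusted p = 0.465), and was called lower with the deposited totals (-0.28, adjusted p = 0.000320). The sheddase gene Adam10 fell (-0.67 ± 0.07) and Adam17 rose (0.83 ± 0.07).

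The interferon-gamma and JAK-STAT route is known to induce Cd274, and its list also holds inhibitors of the route, among them Socs1. The counts therefore do not give the direction of the route. Of its 12 genes 10 rose, 0 fell and Ifngr1 and Irf2 did not pass, with a median of 0.71, beside 9 rises and 2 falls with the deposited totals. The shares over all genes were again 33.9% higher and 35.2% lower, or 20.7% and 53.4% with the totals. Jak2 (2.17 ± 0.04), Socs1 (2.79 ± 0.13) and Stat2 (1.70 ± 0.03) were among those that rose. Of 16 genes of the NF-kB and MAP kinase route 12 rose, 3 fell and Jun did not pass, with a median of 0.75, beside 9 and 4 with the totals. Nfkbia, which encodes an inhibitor of NF-kB (2.18 ± 0.05), Relb (1.91 ± 0.07), Nfkb2 (1.81 ± 0.06), Hif1a (1.75 ± 0.05) and Fos (1.72 ± 0.11) rose most. All of these had an edgeR adjusted p of 4.95e-08 or lower.

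**Figure D5:**
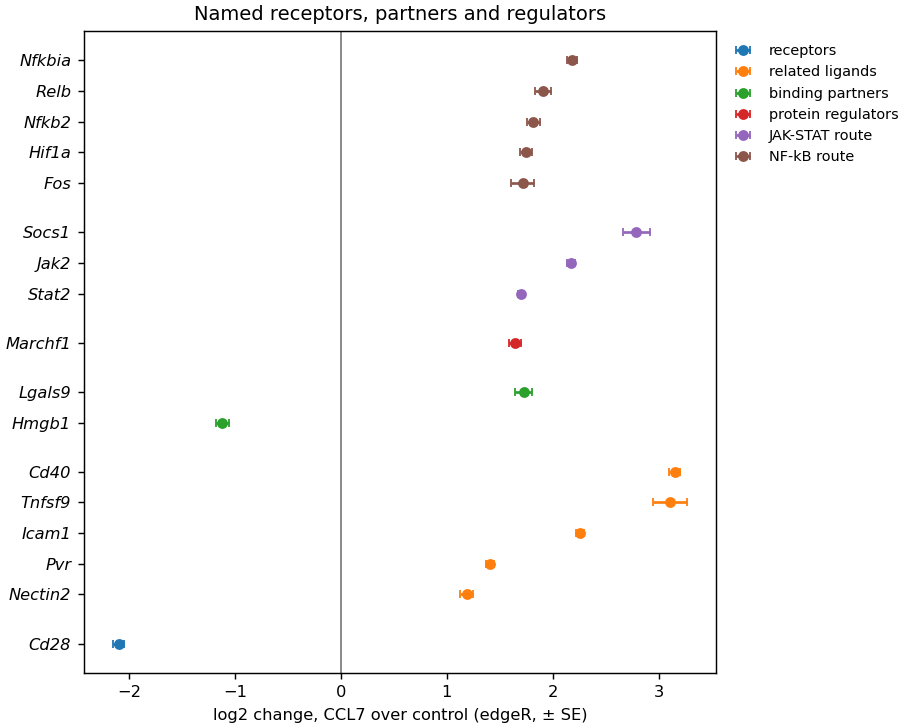
Log2 change, CCL7 over control, of 17 named receptors, ligands, binding partners and regulators outside the group (points, with bars for the SE from 3 libraries per group), coloured by list. Cd28 (-2.10) and Hmgb1 (-1.12) lie below 0 and the other 15 above it.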

How the data were processed

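The deposited table gave whole-number counts per gene without normalization and FPKM for each library, per the file headers. The deposited FPKM divides each count by gene length and by the library total, and the implied gene length equalled the GENCODE M21 exon sum (within 0.5 bases) for 98.2% of 25247 entries. Bowtie 0.12.2, mm8 and mm9 are named, with no role, per the submitters' processing notes. For the annotation, the counter and its strandedness, the setting is not given in the sources used here, so coordinates come from GENCODE M21 by gene identifier.

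edgeR 4.0.16 (R 4.3.3) tested genes whose mean FPKM was 1 or more, by its quasi-likelihood test on TMM-scaled libraries with a group term alone (2-sided, threshold 0.05). Pdcd1lg2 and other low genes came from the same fit without the filter. Log2 changes are edgeR's, and SEs come from the SDs of log2 TMM-scaled CPM. Ratios were compared by exact permutation over 20 assignments. The test was checked on simulated counts in which few genes changed, as many up as down. That check cannot bear on the scaling of these data, where 69.1% of genes were called. Alternatives used limma 3.58.1, DESeq2 1.42.0, other scalings and filters, halved counts (in case both mates of a pair were counted), left-out libraries and a replicate block. The 9 genes and all gene lists were chosen with earlier results of these data known. From each list outside the group, up to 5 genes called with a log2 change of at least 1 in size were named by rule, of which 1 is not reported here. Other genes of the lists, the antisense transcripts and neighbouring genes were named after their values were seen. Promoter sequences are RefSeq's (GRCm38.p6).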

Additional observations from a re-analysis of the deposited data

How the results depend on the processing

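Across 16 alternatives each, Cd86, Cd83, Cd274, Icosl, Cd276, Vsir and Havcr2 kept their direction and their call, and Pdcd1lg2 was called under none of the 14 that gave it a value (-0.00 to 0.97). The ranges of log2 change were 1.51 to 2.24 for Cd86, -3.59 to -2.79 for Cd83, 2.27 to 2.65 for Cd274, 0.40 to 0.78 for Icosl, -1.09 to -0.57 for Cd276, -0.53 to -0.24 for Vsir and -0.95 to -0.66 for Havcr2. Cd80 was called under 11 of 16 alternatives. It was not called with the deposited totals (0.0726), upper quartile scaling (0.23), limma on log2(FPKM + 1) (0.0547) or on log2(FPKM + 0.1) (0.0709), nor without control replicate 1. Its log2 change ran from 0.25 to 0.39 when 1 library was left out. Over all genes, 2306 were called higher and 5949 lower with the deposited totals, against 3779 and 3919 with TMM, 2283 and 5930 with limma on log2(FPKM + 1), and 2249 higher with a pseudocount of 0.1; these scale by library total, which shifts all genes down. Among the binding partners 1 gene rose under these 3 settings in place of 2. Among the post-translational regulators 3 rose with either limma fit, and 9 fell with the deposited totals and 8 with upper quartile scaling and either limma fit, in place of 5. In the JAK-STAT list 2 fell under these 3 settings in place of 0. In the list of other ligands and related genes 1 gene fell without the filter and with filterByExpr, and 1 to 2 when 1 library was left out. The cause was not tested. Of the other named genes, Plgrkt, Cd48 and Cmtm6 changed call (445 of 462 values kept direction and call). Same-numbered libraries did not deviate together (correlations -0.09, -0.06 and -0.03). The labels name no pairing, so whether the numbers pair libraries is not known. With a replicate block 4 of the 8 genes were higher and 4 lower, and 3629 and 3803 genes were called overall. The low level of Pdcd1lg2 kept it out of the main test, and its few counts limit its value.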

Other observations

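Genes beside the ligand genes, looked up by position and named after their values were seen, did not all move with them. Of 16 nearest protein-coding neighbours 10 were tested, with 6 called higher, 3 lower and 1 not called. Over all genes tested 33.9% were called higher and 35.2% lower. Adprh (log2 change 0.64) and Timmdc1 (0.19) rose beside Cd80, and Nptn (-0.68) and Psap (-0.26) fell beside Cd276 and Vsir. Jarid2 (0.27) and Med7 (0.41) rose beside Cd83 and Havcr2, which fell, and Gatd3a beside Icosl was not called. None of these named neighbours was tried under the alternatives above. Plgrkt, which encodes a plasminogen receptor and is read away from Cd274 with 65 bases between the gene models, was at 50.2 ± 3.32 CPM (mean ± SD, n = 3) in controls and 45.0 ± 0.90 with CCL7. Its log2 change was -0.16 ± 0.06 (edgeR adjusted p = 0.0331), a call not made by DESeq2 (-0.15), without the filter (-0.11) or with filterByExpr (-0.13). It was lost as well without control replicate 2 (adjusted p = 0.123), control replicate 3 (0.136), CCL7 replicate 1 (0.106) and CCL7 replicate 3 (0.0659). Ric1, the next protein-coding gene past Pdcd1lg2, went from 53.1 ± 1.87 to 85.7 ± 11.4 CPM (0.69 ± 0.12). Dnmt3l, a cofactor gene of DNA methylation that ends 5680 bases before Icosl, went from 12 to 959 counts (6.25 ± 0.75, edgeR adjusted p = 5.71e-08), where Icosl changed by 0.73. The size for Dnmt3l rests on its few control counts.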
